A study of Homo sapiens with 9 samples.

Results

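The genes of mitosis and the G2/M transition described here are 53 named genes of the cell division machinery, taken by symbol from a list. The list was chosen with earlier results of these data known. Each of the 53 symbols matched 1 Ensembl gene among the 60671 genes listed in the count files, and 51 had enough counts to be tested. The cells were of the N/TERT line, immortal keratinocytes from human epidermis that carry added telomerase, and were grown without treatment in 3 groups of 3 libraries. Control cells had the WT genotype, the second group carried a CRISPR knockout of SGPL1 (SGPL1 KO, here KO), and the last group overexpressed SGPL1 (SGPl1 OE, here OE). SGPL1 encodes the lyase that breaks down sphingosine-1-phosphate in the endoplasmic reticulum. All groups share the N/TERT background. The sources used here do not give the number of clones behind the edited lines, the promoter of the added SGPL1 or whether the controls carried an empty vector. Replicates are named biological in the labels, and the p-values measure the spread between these libraries, which may lie within a line.

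Cells that enter mitosis depend on cyclin-dependent kinase 1 (CDK1) bound to cyclin A or cyclin B, and on the transcription factor FOXM1, which with the MuvB complex and B-MYB switches on genes of late S phase, G2 and mitosis. Aurora and Polo-like kinases then build the spindle, condensins compact the chromosomes, and kinesins move them. The spindle checkpoint holds back the anaphase-promoting complex (APC/C) until every kinetochore is attached. Once released, the APC/C with CDC20 destroys securin and cyclin B, separase cuts cohesin, and the cell divides. In the epidermis these genes are on in cycling keratinocytes of the basal layer and switched off as cells leave it to differentiate. Their mRNA is scarce in resting cells, so their summed level is often read as a proliferation signature.

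The 9 libraries held 6317564 counts (KO 3) to 13330479 counts (OE 3). Levels are given as CPM, counts per 1000000 counts of the library, after scaling by TMM, a factor that evens out composition between libraries. SGPL1 itself had 83.9, 95.1 and 98.3 CPM in control, 58.8, 58.3 and 61.6 CPM in KO and 1132.5, 1103.7 and 929 CPM in OE, so each library lay on the side its label gives. All 10 keratinocyte markers were detected in every library. Of the 6 fibroblast markers 3 or 4 were at 0 in each library, of the 6 melanocyte markers 3 or 4, and of the 7 blood and endothelial markers 5 or 6. The summed level was 8.12 to 28.4 CPM for fibroblast markers, most of it COL1A1, and 60.0 to 101 CPM for melanocyte markers, nearly all of it MITF. It was 0.292 to 1.42 CPM for blood and endothelial markers. KO 3, the shallowest library, stood apart in the mitotic genes: 45 of the 51 tested lay above the KO group mean there, with a median deviation of 0.18 on the log2 scale, against -0.09 in KO 1 and -0.07 in KO 2.

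Nearly the whole mitotic set was higher with SGPL1 overexpression. The 53 genes together took 3298.9, 3347.4 and 3539.9 CPM in control, 3199, 3246.7 and 3714.7 CPM in KO, and 4943.4, 5290.5 and 5121.4 CPM in OE. The OE libraries lay above all others, and the KO libraries spread across the control range and beyond it at both ends. In bulk RNA, more cells in division and more of this RNA per dividing cell cannot be told apart. Each gene was tested with edgeR's quasi-likelihood F test over all 13390 genes that passed the count filter, and a gene was called changed at a Benjamini-Hochberg adjusted p under 0.05. Fold changes are log2 values with their standard errors (SE) and rest on 3 libraries a group.

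**Figure D1:**
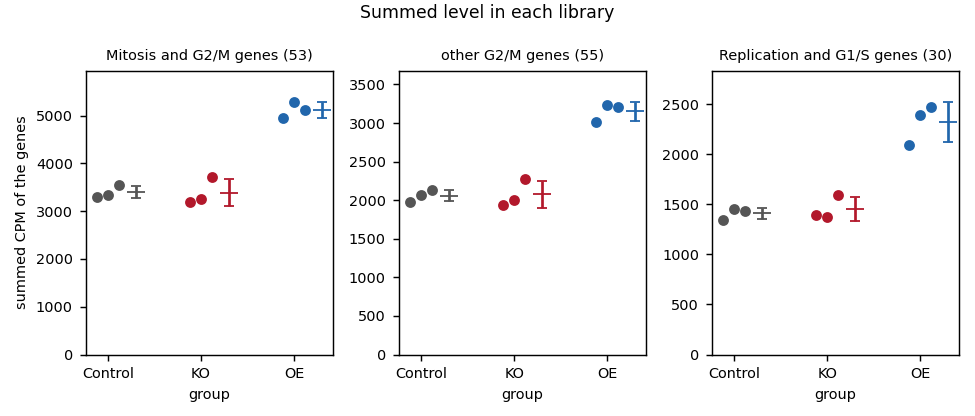
Summed CPM (y axis, from 0) of the mitosis and G2/M genes, of 55 other G2/M genes and of 30 replication and G1/S genes in each library, by group (x axis). Points are libraries, and the bar beside them is the mean with its SD (n = 3). In all 3 panels every OE library lies above every control and KO library.

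In OE against control, 47 of the 51 tested genes rose and 0 fell, where 18.6% of all tested genes passed (9.28% rose and 9.34% fell). At an unadjusted p under 0.05, 49 were higher and 0 lower by edgeR. DESeq2 called 46 higher and 0 lower, and limma-voom 48 higher and 0 lower. The median fold change was 0.65, beside -0.01 over all genes tested. In 50 of the 51 genes all OE libraries lay above all control libraries, a pattern seen in 17.2% of all tested genes. SGO1 was the exception. With OE libraries below all control libraries there were 0 mitotic genes (17.6% of all genes). Only BUB3, SGO1, SPC25 and SMC2 missed the threshold in this fit, with fold changes of 0.25, 0.16, 0.55 and 0.17. BUB3 (adjusted p = 0.0543) passed without KO 2, KO 3 or OE 1 (0.0321 to 0.159). The fold changes of the 47 called genes lay between 0.28 for ECT2 and 0.96 for HJURP and KIF15. For 44 of the 47 the call held whichever library was left out. ECT2 (adjusted p = 0.0499) lost it without any of the 3 control libraries, KO 2, OE 1 or OE 2, with adjusted p from 0.0281 to 0.187. SPC24 lost it without Control 1, Control 3 or OE 3 (0.00619 to 0.089), and CENPA without Control 1 (0.00486 to 0.0507). With a trend over exon length removed from each library, 48 rose and 0 fell (20.3% of all genes passed, 10.5% higher and 9.84% lower). With trends over length and GC content removed, 49 rose and 0 fell (21.2%, 10.6% and 10.5%).

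With SGPL1 knocked out, the same genes went both ways, in shares near those of all tested genes. In KO against control, 17 of the 51 genes rose, 16 fell and 18 did not pass the test, and the median fold change was 0.02 (0.00 over all genes tested). The background is large in this comparison: 51.9% of all tested genes passed, 26.0% higher and 25.9% lower. Shares of 33.3% and 31.4% of the mitotic genes are close to that background. The libraries did not overlap, KO above control, in 15 of the 51 genes (30.0% of all genes), and KO below control in another 15 (29.4% of all genes). BIRC5 (survivin), MAD2L1, HMMR, CDK1, PTTG1 (securin), CCNB1 and CCNB2 led the rises. CENPE, MKI67, CENPF and ESPL1 (separase) led the falls. Among these, BIRC5 lies at chr17:78214186-78225636 (plus strand) and MAD2L1 at chr4:120055623-120066858 (minus strand) on GRCh38. CENPE spans chr4:103105349-103198445 (minus strand), MKI67 chr10:128096659-128126423 (minus strand) and ESPL1 chr12:53268299-53293638 (plus strand). The 53 genes sit on 19 chromosomes, with at most 6 on any chromosome.

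**Figure D2:**
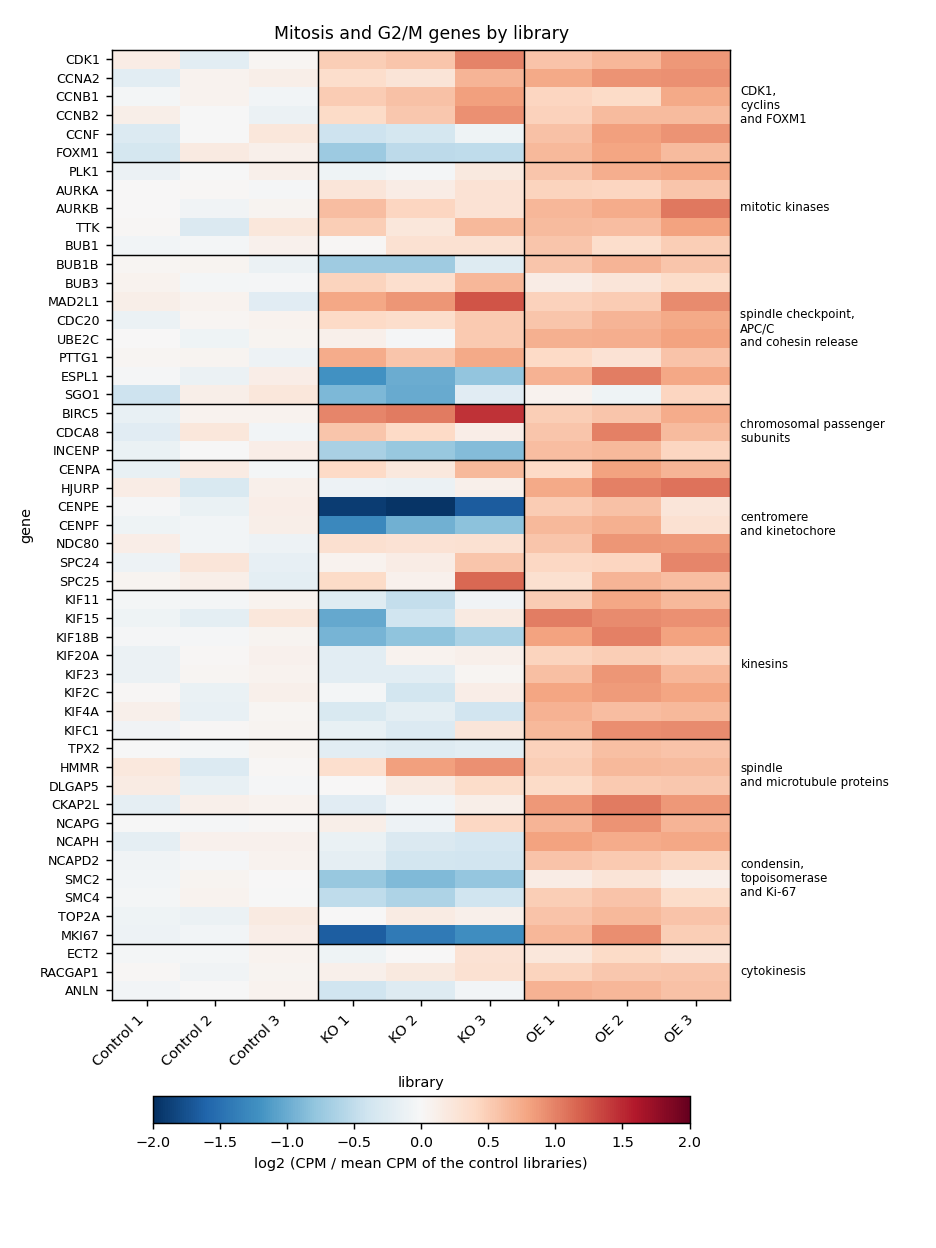
Level of each of the 51 tested genes (rows, by role) in each library (columns), as log2 of its CPM over the mean CPM of the control libraries (colour scale from -2 to 2). The OE columns are red in nearly every row, and the KO columns hold red rows such as BIRC5 and MAD2L1 beside blue rows such as CENPE, MKI67 and ESPL1.

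The KO fold changes of the mitotic genes moved with exon length. Over the 51 genes, Spearman's rho between exon length and the KO fold change was -0.59, beside -0.37 over all tested genes. In OE it was -0.08, beside -0.04. These points share their libraries, and the values are descriptions. The 10 shortest mitotic genes had a median KO fold change of 0.44 and the 10 longest -0.66. Among all genes, the decile with a median exon length of 1178 bases had a median of 0.52, and the decile with a median of 13563 bases had -0.45. All 53 exon lengths lie between these ends, from 1286 bases for UBE2C to 12845 bases for MKI67. The fits with trends removed subtract from each library a smooth curve (loess) of its level over exon length, or over exon length and GC content. The length trend removed, 12 genes were higher and 13 lower in KO (48.9% of all genes passed, 26.6% higher and 22.3% lower), with a median of 0.00. Length and GC trends removed, 8 were higher and 16 lower (45.5% of all genes passed, 24.7% higher and 20.8% lower), with a median of -0.09. What part RNA quality or library preparation has in the length trend was not tested. The length trend removed, CCNA2, AURKA, AURKB, CDC20, CDCA8, CENPA, NDC80, SPC25, KIF11, NCAPD2 and ANLN no longer passed, and BUB1, TOP2A and RACGAP1 did.

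**Figure D3:**
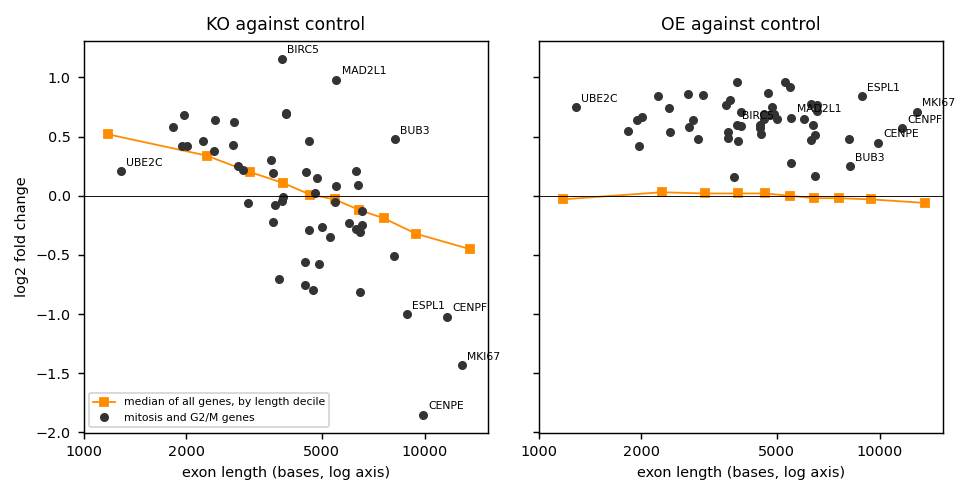
Log2 fold change (y axis) against exon length in bases (x axis, log scale) for KO against control and OE against control. Dark points are the 51 mitosis and G2/M genes, and orange squares the median of all tested genes in each of 10 length deciles. In KO both fall from left to right, with CENPE, CENPF, MKI67 and ESPL1 below the trend and BIRC5, MAD2L1 and BUB3 above it, and in OE the mitotic genes lie above a nearly flat line.

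Of the 33 genes called in KO, 22 kept their call whichever library was left out, 11 of them higher and 11 lower. Among these 22, CCNA2, AURKB, CDC20 and NCAPD2 lost it with the length trend removed, and CCNA2, CCNB2, AURKB and NCAPD2 with length and GC trends removed. DESeq2 did not call 7 of the 33 (SGO1, CDCA8, CENPA, NDC80, SPC25, KIF11 and KIF4A), and limma-voom 5 of these. Without KO 3 alone, 12 genes were higher and 16 lower. Keratinocyte identity genes also differed in KO: 8 of 10 markers fell and TP63 rose, and their sum was 27324 ± 335 CPM in control (SD, n = 3), 16999.1 ± 851 CPM in KO and 28687.4 ± 494 CPM in OE. COL1A1, the only tested fibroblast marker, fell in KO as well (log2 fold change -1.17, adjusted p = 6.57e-06). MITF, the main melanocyte marker, fell in KO by 0.40 and in OE by 0.59 on the log2 scale. Their part in the mitotic gene results was not tested.

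The cyclin-dependent kinase and its regulators come first. All 6 of this group rose in OE, 4 rose in KO and 1 fell. The shares of all tested genes, for this and each later role, were 9.28% higher and 9.34% lower in OE. In KO they were 26.0% higher and 25.9% lower. CDK1, the kinase that drives entry into mitosis, stood at 63.4, 49.6 and 58.4 CPM in control, 80.7, 84.3 and 113 CPM in KO, and 85.1, 90.7 and 104 CPM in OE. It rose by 0.69 ± 0.12 in KO (adjusted p = 4.5e-05) and by 0.71 ± 0.12 in OE (adjusted p = 0.000144), and the edited lines overlapped. CCNB1, its cyclin B1 partner, was at 126, 137 and 125 CPM in control, 184, 195 and 229 CPM in KO, and 176, 169 and 220 CPM in OE. Both edited lines lay above every control library, with rises of 0.64 ± 0.10 (adjusted p = 1.05e-05) in KO and 0.54 ± 0.10 (adjusted p = 0.000356) in OE. CCNB2, cyclin B2, rose by 0.62 ± 0.12 in KO (adjusted p = 0.000151) and 0.58 ± 0.12 in OE (adjusted p = 0.00114). The KO rises of these 3 genes were smaller with length and GC trends removed, at 0.33 for CDK1 (adjusted p = 0.00914), 0.21 for CCNB1 (adjusted p = 0.0307) and 0.23 for CCNB2, which then missed the threshold (adjusted p = 0.0847).

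CCNA2, cyclin A2 of S phase and G2, stood at 44.7, 54.5 and 56.5 CPM in control, 65.9, 61.9 and 83.0 CPM in KO, and 88.1, 97.0 and 97.4 CPM in OE. The 3 groups did not overlap, and the OE rise was 0.86 ± 0.11 (adjusted p = 5.52e-06). The KO rise of 0.43 ± 0.11 (adjusted p = 0.00289) dropped to 0.25 with the length trend removed (adjusted p = 0.0586) and to 0.00, marginally below 0, with length and GC trends removed (adjusted p = 0.984). FOXM1, the transcription factor that acts on many of the other members, went in opposite directions. It was at 36.6, 52.8 and 50.1 CPM in control, 28.2, 32.2 and 32.8 CPM in KO, and 72.6, 80.7 and 72.1 CPM in OE. All KO libraries were below and all OE libraries above the control libraries, with changes of -0.58 ± 0.13 (adjusted p = 0.00048) and 0.69 ± 0.12 (adjusted p = 0.000167). Of its exon bases 15.9% overlap ITFG2, and the counting can lose reads there. CCNF, cyclin F of an SCF ubiquitin ligase, rose in OE by 0.78 ± 0.14 and had a KO value of -0.28 ± 0.15 that did not pass (adjusted p = 0.113), though it did without Control 1 (adjusted p = 0.0357, range 0.0357 to 0.455 over the libraries left out).

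**Figure D4:**
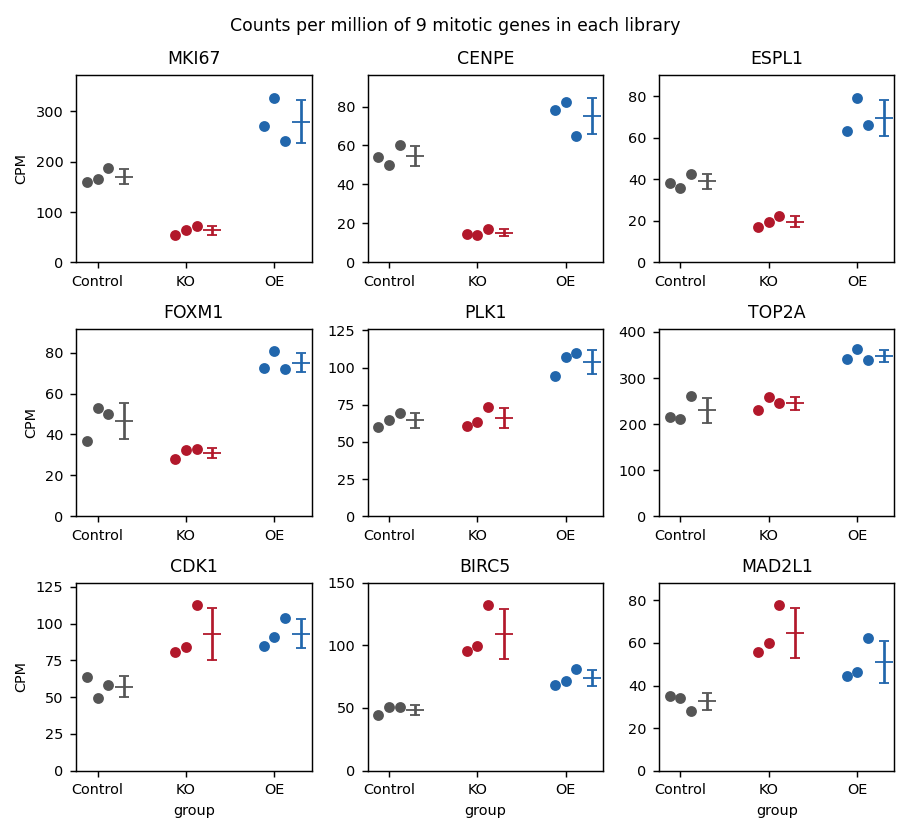
Counts in CPM (y axis, from 0) of 9 mitotic genes in each library, by group (x axis). Points are libraries, and the bar beside them is the mean with its SD (n = 3). MKI67, CENPE, ESPL1 and FOXM1 are lowest in KO and highest in OE, PLK1 and TOP2A overlap between control and KO, and BIRC5 and MAD2L1 have their highest mean in KO.

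All 5 mitotic kinases rose in OE, and in KO 3 rose and 0 fell (unadjusted also 3 and 0 by edgeR). Of all tested genes 26.0% rose and 25.9% fell in KO. With the length trend removed 2 of the 5 rose in KO, and with length and GC trends removed 0 did. PLK1, the Polo-like kinase of centrosome maturation and mitotic entry, was at 59.8, 64.5 and 69.6 CPM in control, 61.0, 63.2 and 73.6 CPM in KO, and 94.6, 107 and 110 CPM in OE. Control and KO overlapped throughout (log2 fold change 0.02 ± 0.10, adjusted p = 0.856), and OE stood clear of both (0.68 ± 0.10, adjusted p = 1.93e-05). AURKA, the Aurora kinase of the spindle poles, was at 101, 103 and 99.7 CPM in control, 119, 112 and 124 CPM in KO, and 138, 136 and 149 CPM in OE. The groups stepped up without overlap, by 0.22 ± 0.08 in KO (adjusted p = 0.0259) and 0.48 ± 0.08 in OE (adjusted p = 0.000128). The small KO step was lost without any control library, KO 1 or KO 3 (adjusted p 0.0163 to 0.0858) and was 0.06 with the length trend removed. AURKB, the kinase of the chromosomal passenger complex, was at 24.9, 23.7 and 25.7 CPM in control, 38.0, 33.3 and 30.3 CPM in KO, and 39.4, 41.4 and 51.6 CPM in OE. It too rose stepwise, by 0.46 ± 0.13 (adjusted p = 0.00555) and 0.84 ± 0.13 (adjusted p = 3.98e-05), and the length trend removed left 0.20 in KO (adjusted p = 0.177).

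TTK, the MPS1 kinase that starts spindle checkpoint signalling, was at 24.0, 19.3 and 27.5 CPM in control, 33.3, 27.5 and 36.9 CPM in KO, and 36.7, 36.1 and 41.1 CPM in OE. The lowest KO library equalled the highest control library to 3 digits, while OE was clear of control. The rises were 0.46 ± 0.14 in KO (adjusted p = 0.00986) and 0.69 ± 0.14 in OE (adjusted p = 0.000893). In KO the call was lost without Control 2 or KO 3 (adjusted p 0.00394 to 0.0821) and with length and GC trends removed (0.23, adjusted p = 0.168). BUB1, the checkpoint kinase at kinetochores, rose in OE by 0.47 ± 0.10 and had a KO value of 0.21 ± 0.10 (adjusted p = 0.0878), which passed without KO 1 (0.0285, range 0.0285 to 0.269) and, at 0.33, with the length trend removed (adjusted p = 0.00734).

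Of the 8 genes of the spindle checkpoint, the APC/C and cohesin release, 4 rose and 3 fell in KO (26.0% and 25.9% of all genes). In OE 6 of the 8 rose. MAD2L1, the checkpoint protein that captures CDC20, was at 35.3, 34.3 and 27.9 CPM in control, 55.7, 60.2 and 77.8 CPM in KO, and 44.5, 46.3 and 62.5 CPM in OE. Control was below both edited lines, by 0.98 ± 0.14 in KO (adjusted p = 3.87e-06) and 0.66 ± 0.14 in OE (adjusted p = 0.00157). BUB3, a further part of the mitotic checkpoint complex, rose in KO by 0.48 ± 0.09 (adjusted p = 0.000115) and by 0.67 with the length trend removed. BUB1B, which encodes BUBR1 of the same complex, fell in KO by 0.56 ± 0.13 (adjusted p = 0.00068) and rose in OE by 0.60 ± 0.12 (adjusted p = 0.000725). Its exon bases overlap PAK6 and a BUB1B-PAK6 readthrough gene over 10.2%. CDC20, the APC/C activator that the checkpoint holds, was at 98.7, 110 and 112 CPM in control, 141, 136 and 154 CPM in KO, and 158, 171 and 181 CPM in OE. The 3 groups did not overlap, with rises of 0.42 ± 0.09 (adjusted p = 0.000261) and 0.67 ± 0.09 (adjusted p = 4.93e-06). The KO rise was 0.14 with the length trend removed (adjusted p = 0.167).

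Separase and its inhibitor went opposite ways in KO. ESPL1, separase, the protease that cuts cohesin at anaphase, was at 38.3, 35.8 and 42.8 CPM in control, 16.9, 19.6 and 22.5 CPM in KO, and 63.2, 79.2 and 66.4 CPM in OE. The groups were far apart, with a fall of 1.00 ± 0.13 on the log2 scale in KO (adjusted p = 1.15e-06) and a rise of 0.84 ± 0.12 in OE (adjusted p = 1.81e-05). The KO value was -0.76 with the length trend removed and -0.48 with length and GC trends removed (adjusted p = 0.00326). PTTG1, securin, which inhibits separase, rose in KO by 0.68 ± 0.11 (adjusted p = 1.19e-05) and in OE by 0.42 ± 0.11 (adjusted p = 0.00643). Its KO rise was 0.40 with the length trend removed and 0.32 with length and GC trends removed, and passed in both. UBE2C, the ubiquitin-conjugating enzyme of the APC/C and the shortest of the genes, rose in OE by 0.75 ± 0.11 (adjusted p = 2.63e-05). Its KO value of 0.21 ± 0.11 did not pass (adjusted p = 0.127) and was -0.16 with the length trend removed. It passed only without KO 2 (0.03, range 0.03 to 0.789).

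SGO1, shugoshin, which shields centromeric cohesin, had the lowest level per length of the tested genes. It fell in KO by 0.70 ± 0.28 (adjusted p = 0.0427), a call lost without Control 2, Control 3, KO 1 or KO 2 (adjusted p 0.0134 to 0.16). In OE its value of 0.16 ± 0.26 did not pass (adjusted p = 0.724). Its antisense gene SGO1-AS1 overlaps 15.8% of its exon bases. The counting command sets no strand option, so the counting can lose reads in these shared bases.

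The chromosomal passenger complex, which corrects faulty attachments, holds AURKB with 3 further subunits. These 3 all rose in OE, and in KO 2 rose and 1 fell. BIRC5, survivin, which brings the complex to the centromere, was at 44.0, 50.8 and 51.0 CPM in control, 95.4, 99.8 and 132 CPM in KO, and 68.7, 71.3 and 81.1 CPM in OE. It had its highest levels in KO, clear of both other groups, with rises of 1.16 ± 0.12 in KO (adjusted p = 1.75e-08) and 0.60 ± 0.11 in OE (adjusted p = 0.000515). INCENP, the scaffold that binds and activates the kinase, was at 64.7, 71.2 and 78.1 CPM in control, 45.6, 42.2 and 39.2 CPM in KO, and 109, 112 and 96.3 CPM in OE. Here KO was lowest without overlap, with -0.75 ± 0.10 (adjusted p = 2.08e-06) against 0.57 ± 0.10 in OE (adjusted p = 0.000167). The KO values of BIRC5 (1.06) and INCENP (-0.75) passed with the length trend removed as well. CDCA8, borealin, rose in OE by 0.74 ± 0.14 (adjusted p = 0.000586) and in KO by 0.38 ± 0.15 (adjusted p = 0.0343). The latter call was lost without Control 1, Control 3, KO 1 or KO 2 (adjusted p 0.0133 to 0.177).

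At the centromere and kinetochore 6 of 7 genes rose in OE, and in KO 3 rose and 2 fell (26.0% and 25.9% of all genes). With the length trend removed 0 rose and 2 fell in KO, and the same with length and GC trends removed. CENPE, a long kinesin of the kinetochore that carries chromosomes to the spindle equator, showed the deepest fall of all members. It was at 54.2, 50 and 60.1 CPM in control, 14.7, 14.0 and 17.2 CPM in KO, and 78.1, 82.2 and 64.7 CPM in OE. All KO libraries lay far below every other library, with a change of -1.85 ± 0.13 (adjusted p = 8.83e-11), and OE rose by 0.45 ± 0.11 (adjusted p = 0.00539). CENPF, a large kinetochore and nuclear matrix protein, was at 118, 121 and 135 CPM in control, 50.9, 64.1 and 70.7 CPM in KO, and 196, 204 and 155 CPM in OE. Its groups did not overlap either, with -1.02 ± 0.12 in KO (adjusted p = 1.22e-07) and 0.57 ± 0.11 in OE (adjusted p = 0.000545). The length trend removed, KO stood at -1.54 for CENPE and -0.64 for CENPF, and both passed.

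CENPA, the histone H3 variant that marks the centromere, was at 10.9, 13.6 and 11.8 CPM in control, 15.9, 14.0 and 18.9 CPM in KO, and 16.0, 21.2 and 19.4 CPM in OE. Both edited lines lay above control, by 0.42 ± 0.17 in KO (adjusted p = 0.0485) and 0.64 ± 0.17 in OE (adjusted p = 0.00853). The KO call was lost without Control 1, Control 3, KO 1, KO 3 or OE 2 (adjusted p 0.03 to 0.184), and the value was 0.13 with the length trend removed. HJURP, the chaperone that loads CENPA, was at 21.5, 15.7 and 20.8 CPM in control, 18, 17.8 and 20.6 CPM in KO, and 32.6, 38.6 and 41.0 CPM in OE. KO lay inside the control range (-0.04 ± 0.15, adjusted p = 0.826), and OE was clear of both (0.96 ± 0.14, adjusted p = 2.97e-05).

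NDC80, the microtubule-binding core of the kinetochore, was at 31.9, 28 and 27.0 CPM in control, 36.2, 35.3 and 35.8 CPM in KO, and 42.4, 53.3 and 52.7 CPM in OE. The groups rose in steps without overlap, by 0.30 ± 0.12 (adjusted p = 0.0389) and 0.77 ± 0.12 (adjusted p = 3.86e-05). The KO call was lost without Control 2, Control 3 or any KO library (adjusted p 0.0267 to 0.144), with the length trend removed (0.19, adjusted p = 0.187) and with length and GC trends removed, where it turned (-0.06, adjusted p = 0.69). Its partners in the NDC80 complex, SPC24 and SPC25, had KO values of 0.25 ± 0.18 (adjusted p = 0.246) and 0.58 ± 0.23 (adjusted p = 0.0352). The SPC25 call was lost without Control 1, Control 3 or KO 3 (adjusted p 0.0067 to 0.367) and with the length trend removed (0.28, adjusted p = 0.309). In OE SPC24 rose by 0.64 ± 0.17 (adjusted p = 0.0101), and SPC25 at 0.55 ± 0.22 did not pass (adjusted p = 0.0873). It passed without KO 3 (0.0346, range 0.0346 to 0.25), with no filter on low counts, with only these groups fitted and, at 0.60, with length and GC trends removed (adjusted p = 0.0402).

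Of the 8 kinesins all rose in OE, and in KO 3 fell and 0 rose (unadjusted also 3 and 0 by edgeR). Among all tested genes 25.9% fell and 26.0% rose in KO. KIF18B, a plus-end motor that limits astral microtubules, was at 16.3, 16.4 and 17.2 CPM in control, 8.68, 9.53 and 10.7 CPM in KO, and 28.9, 33.4 and 28.9 CPM in OE. KO was lowest and OE highest without overlap, at -0.80 ± 0.16 (adjusted p = 0.000169) and 0.87 ± 0.14 (adjusted p = 7.86e-05). KIF4A, the chromokinesin of the spindle midzone, was at 37.3, 31.3 and 35.5 CPM in control, 28.1, 30.3 and 26.5 CPM in KO, and 55.9, 53 and 54.6 CPM in OE. Its fall in KO was small (-0.29 ± 0.11, adjusted p = 0.0381) and was lost without Control 1, Control 3, KO 1 or KO 3 (adjusted p 0.0249 to 0.139), while OE rose by 0.65 ± 0.11 (adjusted p = 0.000118). KIF11 (Eg5), which pushes the spindle poles apart, fell by 0.26 ± 0.11 in KO (adjusted p = 0.0439) and rose by 0.65 ± 0.10 in OE. That fall was lost without any control library, KO 1 or KO 2 (adjusted p 0.0126 to 0.264), and narrowly with the length trend removed (-0.24, adjusted p = 0.0569).

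KIF2C (MCAK), a depolymerase that frees wrongly attached microtubules, was at 43.8, 39.2 and 46.6 CPM in control, 42.2, 33.4 and 47.5 CPM in KO, and 75.0, 78.1 and 74.6 CPM in OE. KO straddled control (-0.08 ± 0.12, adjusted p = 0.585), and OE lay above both (0.81 ± 0.11, adjusted p = 1.43e-05). KIFC1, a minus-end motor that gathers spindle poles, was at 31.5, 33.7 and 34.3 CPM in control, 29.9, 27.5 and 39.1 CPM in KO, and 52.1, 63.0 and 63.7 CPM in OE. Again KO spread across the control values (-0.06 ± 0.13, adjusted p = 0.73), and OE rose by 0.85 ± 0.12 (adjusted p = 2.56e-05). KIF20A and KIF23, motors of the central spindle, rose in OE by 0.46 ± 0.09 and 0.72 ± 0.11 and had KO values of -0.01 ± 0.10 and -0.13 ± 0.11 that did not pass. KIF15, a motor that can stand in for KIF11, had the largest OE rise of the kinesins (0.96 ± 0.19, adjusted p = 0.000901). Its KO libraries stood at 6.75, 10.4 and 15.6 CPM, the widest relative spread of the group, and its value of -0.35 ± 0.21 did not pass (adjusted p = 0.171). It passed without KO 3 (0.0108, range 0.0108 to 0.719) and, at -0.50, with length and GC trends removed (adjusted p = 0.043), where 4 of the 8 kinesins fell in KO.

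Of the 6 spindle and microtubule proteins 4 could be tested, and all 4 rose in OE, while in KO 1 rose and 1 fell. TPX2, which activates AURKA on spindle microtubules, was at 282, 277 and 297 CPM in control, 247, 239 and 246 CPM in KO, and 391, 431 and 425 CPM in OE. The groups were tight and separate, with -0.22 ± 0.07 in KO (adjusted p = 0.0149) and 0.54 ± 0.07 in OE (adjusted p = 1.12e-05). The KO call was lost without Control 3 or KO 2 (adjusted p 0.00636 to 0.0748), and the value was -0.34 with the length trend removed (adjusted p = 0.000313). HMMR, a spindle pole protein also known as a hyaluronan receptor, was at 47.0, 33.7 and 41.3 CPM in control, 51.1, 71.7 and 76.8 CPM in KO, and 57.1, 63.8 and 62.8 CPM in OE. Both edited lines were above control, by 0.70 ± 0.13 (adjusted p = 0.000123) and 0.59 ± 0.13 (adjusted p = 0.00248), though in KO by 0.34 with length and GC trends removed (adjusted p = 0.0197). CKAP2L, a spindle pole protein of dividing cells, was at 16.5, 20.1 and 19.6 CPM in control, 16.0, 18.1 and 20.3 CPM in KO, and 34.1, 38.3 and 34.0 CPM in OE. KO lay over control (-0.05 ± 0.14, adjusted p = 0.775), and OE far above (0.92 ± 0.13, adjusted p = 2.65e-05). DLGAP5, which stabilises kinetochore fibres, rose in OE by 0.49 ± 0.10 and had a KO value of 0.19 ± 0.11 (adjusted p = 0.152).

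NUSAP1 and PRC1, which bundle spindle and midzone microtubules, could not be read from these counts. NUSAP1 had 6 counts and PRC1 37 counts in all 9 libraries. Of the NUSAP1 exon bases 81.4% overlap ENSG00000285920 or OIP5, and of the PRC1 exon bases 61.9% overlap ENSG00000284946 or PRC1-AS1. Reads in bases shared by several genes are assigned to none under the counter's default, and the header sets no other option, so the low counts do not show that these mRNAs were scarce. Among the other members 21 have some overlap, over 0.2% to 33.7% of their exon bases, and 30 have none. The 21 include KIFC1 (14.0%), PLK1 (12.8%) and CCNF (11.8%), where the counting can lose reads too.

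Condensin, topoisomerase II and Ki-67 shape the mitotic chromosome. Of these 7 genes 6 rose in OE, and in KO 4 fell and 0 rose (unadjusted also 4 and 0 by edgeR). Among all tested genes 25.9% fell and 26.0% rose in KO. With the length trend removed 3 of the 7 fell and 1 rose in KO, and with length and GC trends removed 3 fell and 0 rose. MKI67, which coats mitotic chromosomes and is the standard histological proliferation marker, was at 159, 165 and 188 CPM in control, 54.3, 64.3 and 72.0 CPM in KO, and 272, 326 and 241 CPM in OE. No group overlapped another, at -1.43 ± 0.11 in KO (adjusted p = 5.51e-10) and 0.71 ± 0.10 in OE (adjusted p = 2.83e-05). The KO fall stood at -1.02 with the length trend removed and at -0.97 with length and GC trends removed. TOP2A, the topoisomerase that untangles sister chromatids and a second common proliferation marker, was at 216, 212 and 261 CPM in control, 231, 258 and 246 CPM in KO, and 341, 362 and 340 CPM in OE. Control and KO overlapped (0.09 ± 0.09, adjusted p = 0.369), and OE was above both (0.60 ± 0.08, adjusted p = 1.81e-05). With the length trend removed TOP2A passed in KO at 0.22 (adjusted p = 0.0253), and with length and GC trends removed it stood at -0.02.

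SMC2, the ATPase shared by both condensins, was at 95, 103 and 98.9 CPM in control, 58.3, 53.6 and 57.8 CPM in KO, and 109, 118 and 106 CPM in OE. It fell clearly in KO (-0.81 ± 0.09, adjusted p = 8.58e-08), and its small step in OE did not pass (0.17 ± 0.08, adjusted p = 0.182), although every OE library lay above every control library. Its partner SMC4 fell in KO by 0.51 ± 0.09 (adjusted p = 4.36e-05), or by 0.32 with the length trend removed, and rose in OE by 0.48 ± 0.09. IFT80 and TRIM59 overlap 22.0% of the SMC4 exon bases. NCAPD2, a condensin I subunit, fell in KO by 0.31 ± 0.08 (adjusted p = 0.00277), and stood at -0.18 with the length trend removed (adjusted p = 0.0533), and rose in OE by 0.51 ± 0.08. The condensin I subunits NCAPG and NCAPH rose in OE by 0.75 ± 0.11 and 0.77 ± 0.12 and had KO values of 0.15 ± 0.12 and -0.25 ± 0.13 that did not pass. LCORL overlaps 33.7% of the NCAPG exon bases, so its level is uncertain.

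The 3 cytokinesis genes closed the list, with 3 of 3 higher in OE and 1 lower in KO. ANLN, anillin of the contractile ring, was at 190, 196 and 208 CPM in control, 150, 166 and 190 CPM in KO, and 321, 314 and 297 CPM in OE. KO 3 equalled the lowest control library to 3 digits, and the fall of 0.23 ± 0.09 (adjusted p = 0.0256) was lost without Control 2, Control 3, KO 1 or KO 2 (adjusted p 0.00418 to 0.159) and with the length trend removed. The OE rise was 0.65 ± 0.08 (adjusted p = 5.84e-06). RACGAP1, the centralspindlin GTPase-activating protein, was at 81.3, 76.1 and 82.9 CPM in control, 86.4, 91.9 and 98.8 CPM in KO, and 109, 117 and 118 CPM in OE. Its groups did not overlap, but only OE passed (0.52 ± 0.09, adjusted p = 0.000114), with KO just short of the threshold (0.20 ± 0.09, adjusted p = 0.0554, and 0.0389 to 0.2 over the libraries left out, passing without KO 1 or OE 3). ECT2, the exchange factor that activates RhoA at the equator, rose in OE by 0.28 ± 0.10 (adjusted p = 0.0499) and had a KO value of 0.08 ± 0.10 (adjusted p = 0.557). Its OE call was lost for 6 of the 9 libraries left out (adjusted p 0.0281 to 0.187), and DESeq2 did not call it.

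**Figure D5:**
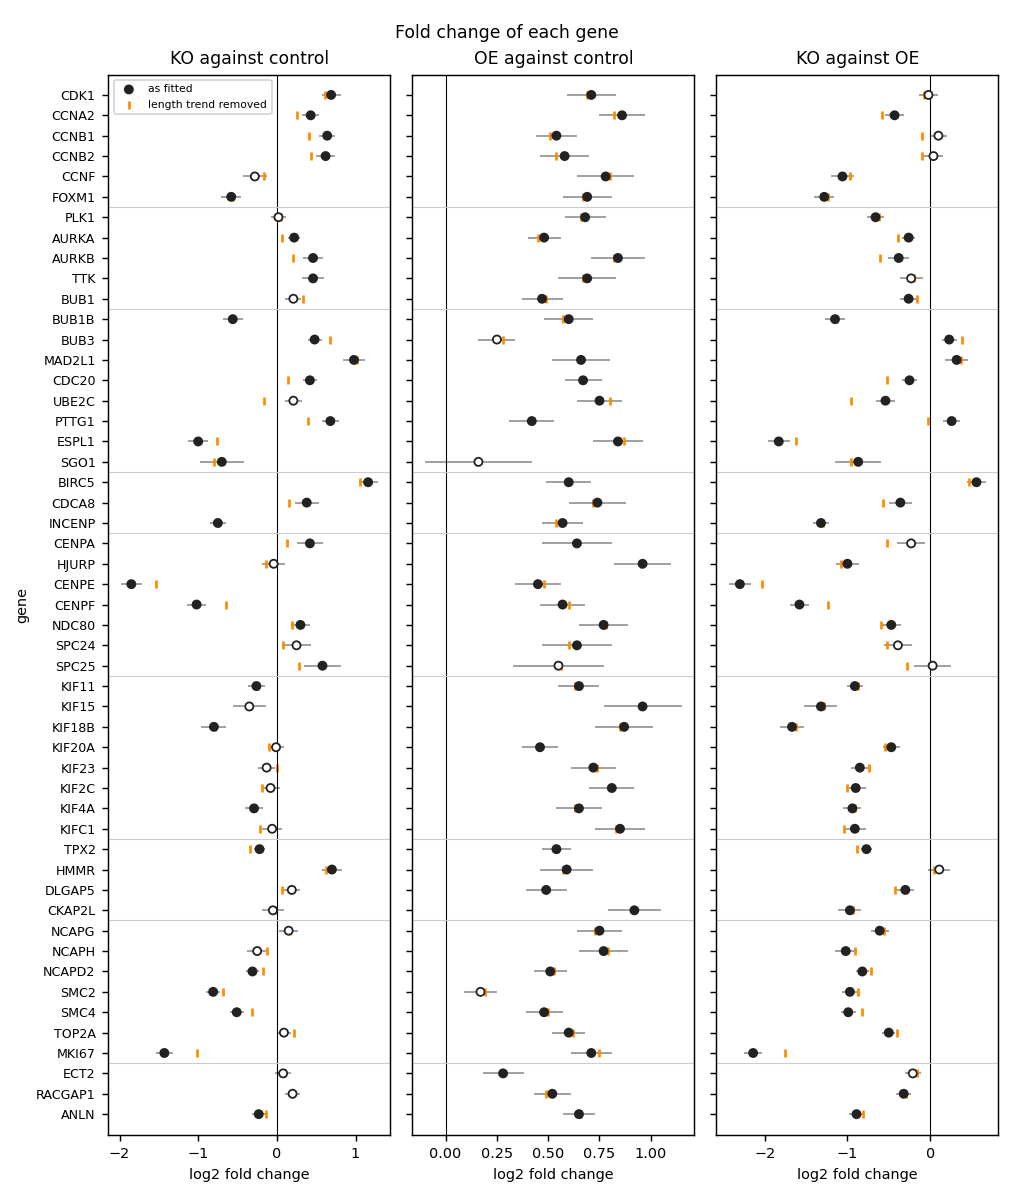
Log2 fold change (x axis, bars are the SE of the fit) of each of the 51 tested genes (y axis, ordered by role) in the 3 comparisons. Filled points have an adjusted p under 0.05, open points do not, and orange ticks show the value with the exon length trend removed. Points lie right of 0 throughout OE against control, on both sides in KO against control, and mostly left of 0 in KO against OE.

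Set directly against each other, the KO lines had less of most mitotic mRNAs than the OE lines. In KO against OE, 38 of the 51 genes were lower and 4 higher, where 57.6% of all tested genes passed, 29.0% lower and 28.6% higher, and the median was -0.61 (all genes -0.01). In 37 genes all KO libraries lay below all OE libraries (31.1% of all genes), and in BIRC5 alone they all lay above (30.5% of all genes). The widest gaps were those of CENPE (-2.30 ± 0.13, adjusted p = 9.68e-13), MKI67 (-2.14 ± 0.11, adjusted p = 4.3e-13), ESPL1 (-1.83 ± 0.13, adjusted p = 3.81e-11), KIF18B (-1.67 ± 0.15, adjusted p = 2.23e-09) and CENPF (-1.58 ± 0.11, adjusted p = 6.34e-11). These values are as fitted, with no length trend removed. Spearman's rho between exon length and the KO against OE fold change was -0.52 over the 51 genes, beside -0.3 over all tested genes. The 4 higher in KO were BIRC5 (0.56 ± 0.11, adjusted p = 0.000173), MAD2L1 (0.32 ± 0.14, adjusted p = 0.0469), PTTG1 (0.26 ± 0.10, adjusted p = 0.0373) and BUB3 (0.23 ± 0.09, adjusted p = 0.0348). Of these only BIRC5 kept the call whichever library was left out. MAD2L1 lost it without Control 1, Control 2, KO 2, KO 3, OE 1 or OE 2 (adjusted p 0.00217 to 0.309), PTTG1 without Control 2, KO 1, KO 3, OE 1 or OE 2 (0.0122 to 0.177), and BUB3 without Control 2, KO 3, OE 1 or OE 2 (0.0116 to 0.236). PTTG1 also turned with the length trend removed (-0.02, adjusted p = 0.86) and with length and GC trends removed (-0.09, adjusted p = 0.469), and MAD2L1 stood at 0.15 in the latter fit (adjusted p = 0.335). Among the lower genes 32 of 38 kept the call whichever library was left out.

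CDK1, CCNB1 and CCNB2 did not pass in KO against OE, with values of -0.02 ± 0.12 (adjusted p = 0.922), 0.10 ± 0.10 (adjusted p = 0.4) and 0.04 ± 0.12 (adjusted p = 0.78). With length and GC trends removed all 3 passed as lower in KO, at -0.34 (adjusted p = 0.00479), -0.31 (adjusted p = 0.00148) and -0.33 (adjusted p = 0.0101). CCNB1 passed when OE 3 was left out (0.22, adjusted p = 0.037, range 0.037 to 0.988). SPC24 (-0.39) missed the threshold but passed as lower without KO 3, OE 1 or OE 2 (0.0162 to 0.402), and ECT2 (-0.21) without KO 3 (0.0117 to 0.317). Of the lower genes that lost their call with a library left out, AURKB did so without KO 3 or OE 3 (adjusted p 0.00645 to 0.0886), BUB1 without KO 1 or OE 1 (0.0235 to 0.191), as also with the length trend removed, and CDC20 without KO 2 (0.00852 to 0.0749). SGO1 did so without KO 2 or OE 3 (0.00329 to 0.0569), CDCA8 without KO 2, KO 3 or OE 2 (0.0153 to 0.231) and DLGAP5 without KO 1 or OE 2 (0.00555 to 0.111). With the length trend removed 39 were lower and 3 higher, with a median of -0.62 (55.6% of all genes passed, 26.5% lower and 29.1% higher). With length and GC trends removed 46 were lower and 2 higher, with a median of -0.80 (53.2% of all genes passed, 25.2% lower and 28.0% higher). The comparisons share libraries: both edited lines are set against the same 3 controls, and KO against OE is their difference.

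Sums by role show the same contrast on the CPM scale. The condensin, topoisomerase and Ki-67 genes summed to 850 ± 53.9 CPM in control, 651 ± 15.6 CPM in KO and 1253.3 ± 81.8 CPM in OE (SD, n = 3). The centromere and kinetochore genes summed to 267 ± 9.97, 184 ± 23.2 and 407 ± 28.7 CPM in that order. Both sums were lowest in KO without overlap. Of the 7 centromere and kinetochore genes, though, only CENPE and CENPF fell in KO, and 3 rose. The median KO fold change of these 7 was 0.25 as fitted and -0.06 with length and GC trends removed. CDK1, the cyclins and FOXM1 summed to 354 ± 13.1 CPM in control, 485 ± 69.6 CPM in KO and 559 ± 44.8 CPM in OE. The mitotic kinases summed to 266 ± 10.1, 311 ± 15.4 and 399 ± 22.1 CPM. In these groups KO lay above control. No length or GC trend was removed from any sum given here. With both trends removed, 0 of the 5 kinases passed in KO (median 0.22, as fitted also 0.22). The median KO fold change of CDK1, the cyclins and FOXM1 was then 0.14, beside 0.52 as fitted. For the condensin, topoisomerase and Ki-67 genes it was -0.13, beside -0.31 as fitted. Kinesins summed to 327 ± 16.0 CPM in control, 293 ± 30.7 CPM in KO and 527 ± 25.8 CPM in OE, and there the highest KO library reached into the control range.

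Levels can be compared between genes only per length. Per kilobase of exon, TPX2 was the highest of the set in control (79.1 CPM per kb), followed by CCNB1 (53.3), CDC20 (53.2) and UBE2C (49.4), and SGO1 was the lowest of the tested genes (1.75). In KO the order changed at the top to CCNB1 (83.3 CPM per kb), CDC20 (71.5) and TPX2 (67.7). MKI67 went from rank 21 in control (13.3 CPM per kb) to rank 42 in KO (4.95), and BIRC5 from rank 23 (12.7) to rank 8 (28.6). In OE TPX2 stayed first (115 CPM per kb), and MKI67 was at rank 18 (21.8). Neighbouring ranks were not tested against each other. No length trend was removed from these levels, so the KO ranks carry the trend over exon length. With it removed, the KO fold change was 0.41 for CCNB1 (0.64 as fitted) and 0.14 for CDC20 (0.42). It was -1.02 for MKI67 (-1.43) and 1.06 for BIRC5 (1.16).

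Promoters are shown because late cell cycle genes are classically governed by 2 promoter elements. Whether these elements have a part in the OE or KO changes was not tested. The CHR element (TTTGAA or TTCGAA) binds the MuvB complex, and CCAAT boxes (CCAAT) bind NF-Y. Promoter windows from 250 bases before to 50 bases after the start, of RefSeq on GRCh38.p14, matched 45 of the 53 genes. FOXM1, AURKA, TTK, BUB3, UBE2C, BIRC5, TPX2 and RACGAP1 were not matched. Where a gene had several windows, the first listed was used. On either strand, a CHR element was in 36 of 45 windows (80.0%), beside 16.6% of the 27305 promoter windows of the same length, taken as 1 per gene. At least 1 CCAAT box was in 36 windows (80.0%, beside 35.7%), at least 2 in 24 (53.3%, beside 11.3%), and both elements in 29 (64.4%, beside 6.58%). Of the genes higher in KO, 9 of 13 windows held a CHR element and 12 of 13 a CCAAT box. Of those lower in KO, 13 of 14 held a CHR element and 9 of 14 a CCAAT box. A match is a description of letters and does not show binding, and these counts were not tested.

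The windows of 4 genes follow, each written 5′ to 3′ along its gene, with CHR elements and CCAAT boxes (or their complements TTCAAA and ATTGG) in capitals. CCNB2 (chr15:59104896-59105195, plus strand), which rose in both edited lines, has 1 CHR element and 4 CCAAT boxes. MKI67 (chr10:128126374-128126673, minus strand), which fell in KO and rose in OE, has 2 CHR elements and 2 CCAAT boxes, and a box there overlaps an element. ESPL1 (chr12:53268049-53268348, plus strand), with the same directions, has 1 of each. CENPE (chr4:103198294-103198593, minus strand), with the deepest KO fall and an OE rise, has 0 of either in this window.
CCNB2: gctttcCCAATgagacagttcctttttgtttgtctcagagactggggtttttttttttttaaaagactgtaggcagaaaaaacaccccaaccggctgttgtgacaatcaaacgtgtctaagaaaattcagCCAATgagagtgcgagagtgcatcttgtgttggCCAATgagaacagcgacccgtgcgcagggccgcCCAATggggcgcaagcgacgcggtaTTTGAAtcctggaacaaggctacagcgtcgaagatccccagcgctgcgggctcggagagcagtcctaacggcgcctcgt
MKI67: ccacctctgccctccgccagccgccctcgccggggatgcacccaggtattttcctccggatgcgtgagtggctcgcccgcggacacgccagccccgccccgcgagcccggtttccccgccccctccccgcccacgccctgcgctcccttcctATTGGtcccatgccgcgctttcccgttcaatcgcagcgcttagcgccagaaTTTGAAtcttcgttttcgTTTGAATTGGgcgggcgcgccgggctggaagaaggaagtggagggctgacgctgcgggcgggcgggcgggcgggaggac
ESPL1: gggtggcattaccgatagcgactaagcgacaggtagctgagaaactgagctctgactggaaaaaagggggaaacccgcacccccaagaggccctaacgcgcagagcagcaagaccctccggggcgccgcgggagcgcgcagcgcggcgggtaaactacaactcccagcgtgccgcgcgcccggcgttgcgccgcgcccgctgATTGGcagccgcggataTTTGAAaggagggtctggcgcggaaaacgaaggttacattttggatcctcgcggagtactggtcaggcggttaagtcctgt
CENPE: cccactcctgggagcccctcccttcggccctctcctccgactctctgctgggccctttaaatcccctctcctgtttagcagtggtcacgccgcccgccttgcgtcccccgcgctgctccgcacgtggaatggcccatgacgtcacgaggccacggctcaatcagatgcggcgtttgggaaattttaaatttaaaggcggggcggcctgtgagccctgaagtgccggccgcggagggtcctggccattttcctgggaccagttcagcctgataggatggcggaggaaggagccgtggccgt

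The wider cell cycle programme was read from lists that hold none of the 53 genes. These lists too were chosen with earlier results of these data known. Of all tested genes 9.28% rose and 9.34% fell in OE, and 26.0% rose and 25.9% fell in KO. Of 55 other G2/M genes 47 rose in OE and 0 fell (unadjusted 52 and 0 by edgeR), with a median of 0.64. CDC25B, the phosphatase that activates CDK1, went from a mean of 111 to 208 CPM (0.90 ± 0.08, adjusted p = 6.31e-08). HMGB2, a chromatin protein, went from 64.3 to 121 CPM (0.91 ± 0.09, adjusted p = 1.41e-07). In KO 16 of the 55 rose and 15 fell, with a median of 0.17, and with length and GC trends removed 9 rose and 15 fell, with a median of -0.04. NEK2, a centrosome kinase, rose by 1.30 ± 0.12 (26.3 to 65.1 CPM, adjusted p = 5.14e-09). CKAP5, a microtubule polymerase, fell by 1.02 ± 0.09 (204 to 100 CPM, adjusted p = 1.32e-09). Both of these KO values are as fitted, with no length trend removed. The KO counts of this list as fitted were near the shares of all tested genes, 26.0% higher and 25.9% lower.

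The G1/S list of 30 replication genes had 27 higher and 0 lower in OE (unadjusted 29 and 0 by edgeR), with a median of 0.75. In KO 8 were higher and 10 lower (26.0% and 25.9% of all genes), with a median of 0.06. In KO 4 were higher and 9 lower with the length trend removed (median -0.05), and 5 and 6 with length and GC trends removed. RRM2, of ribonucleotide reductase, rose in OE by 1.05 ± 0.10 (adjusted p = 8.33e-08), and CLSPN, claspin of the replication checkpoint, fell in KO by 1.44 ± 0.20 (adjusted p = 2.78e-06). The CLSPN value is as fitted, with no length trend removed. The sum of the 30 genes was 1409.7 ± 57.2 CPM in control, 1455.3 ± 121 CPM in KO and 2319.3 ± 198 CPM in OE (SD, n = 3). Of 9 tested tubulins 8 rose in OE and 0 fell (unadjusted also 8 and 0 by edgeR), such as TUBB, from 536 to 994 CPM (0.89 ± 0.09, adjusted p = 1.08e-07).

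Among 12 regulators of the DREAM and MuvB complexes, which sit on CHR elements, 4 rose in OE and 0 fell (unadjusted 5 and 1 by edgeR). Of all tested genes 9.28% rose and 9.34% fell in OE. MYBL2, the B-MYB that joins MuvB in dividing cells, went from 89.0 to 206 CPM (1.21 ± 0.08, adjusted p = 2.45e-10). With the length trend removed 3 of the 12 rose in OE. In KO 3 of the 12 rose and 1 fell (26.0% and 25.9% of all genes). LIN9, a MuvB core subunit, rose in KO by 0.91 ± 0.21 (adjusted p = 0.000982). Of 8 genes for CDK inhibitors and RB1, which restrain the cycle, 4 fell in OE and 1 rose (9.34% and 9.28% of all genes). In KO 1 rose and 1 fell (26.0% and 25.9% of all genes). With length and GC trends removed 2 rose and 3 fell in KO (24.7% and 20.8% of all genes). CDKN2B fell from 157 to 58.4 CPM (-1.43 ± 0.08, adjusted p = 2.13e-11) and CDKN2A from 17.2 to 3.26 CPM (-2.41 ± 0.20, adjusted p = 1.7e-08). CDKN1C fell in OE (106 to 46.2 CPM, adjusted p = 1.45e-05) and in KO (106 to 59.3 CPM, adjusted p = 0.000224). CDKN1A, p21, fell in OE by 0.35 ± 0.08 (adjusted p = 0.00184) and rose in KO by 0.20 ± 0.08 (adjusted p = 0.0311), a call lost with the length trend removed (0.05, adjusted p = 0.593).

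Of 16 APC/C subunits 2 rose in OE and 0 fell (unadjusted 3 and 0 by edgeR), so this list was near the background of 9.28%. In KO 5 rose and 3 fell (26.0% and 25.9% of all genes). UBE2S, which extends the ubiquitin chains, rose in OE by 0.66 ± 0.10 (adjusted p = 6.31e-05), while ANAPC11, the catalytic RING subunit, rose in KO from 44.0 to 96.6 CPM (1.14 ± 0.12, adjusted p = 4.77e-08). The ANAPC11 value is as fitted, with no length trend removed. Of 15 genes of cohesin and condensin II, 10 fell in KO and 2 rose (median -0.49), and 7 rose in OE and 0 fell (unadjusted 8 and 0 by edgeR). SMC1A, a cohesin ring subunit, went from 131 CPM in control to 75.9 CPM in KO (-0.79 ± 0.09, adjusted p = 1.24e-07, and -0.44 with the length trend removed) and 180 CPM in OE (0.45 ± 0.09, adjusted p = 0.000477). The length trend removed, 6 of the 15 fell in KO (median -0.15) and 2 rose.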

How the data were processed

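Poly-A RNA of 9 N/TERT libraries was read as pairs of 150 bases, per the labels' protocols. The deposited files hold whole-number counts per gene, made by the authors with featureCounts 1.5.2 against Ensembl release 101 on GRCh38, per the file headers. Per the submitters' processing notes the tools were FastQC, HISAT2 1.03, featureCounts 0.1.0 and DESeq2. The command in the headers names no setting for pairs, strand, multi-mapped reads or overlapping genes, so mates may count separately. Libraries were grouped by title and genotype. Columns of other series numbered 0.

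Genes were kept by filterByExpr (minimum count 10), which left 13390 of 60671. They were scaled by TMM and tested two-sided with edgeR 4.0.16 in R 4.3.3 on all 9 libraries, with the group as the only term and Benjamini-Hochberg adjustment over all genes tested. The common biological coefficient of variation was 10.2%. No replicate was a copy of another (chi-square per degree of freedom 2.74 to 11.7 between replicates). Trends over exon length, and over exon length and GC content (99.6% of tested genes had a value, from GENCODE 29), were loess offsets with span 0.3. DESeq2 1.42.0, limma 3.58.1, other filters, thresholds, scalings and fits, and each library left out were alternatives. The fits were tested on simulated data.

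The 53 genes, the other lists and the marker lists (keratinocyte, fibroblast, melanocyte, blood and endothelial) were chosen with earlier results of these data known. Values in every library were given for MKI67, TOP2A, CDK1, CCNB1, PLK1, AURKA, AURKB, FOXM1, CDC20, BIRC5 and CENPA, and for the 2 genes of each role with the smallest p in KO and in OE against control. Of each other list up to 4 genes by smallest p could be named. Replicate numbers in the titles were not taken as pairs: residual correlations of equal numbers were -0.077 to 0.066, and of different numbers -0.086 to 0.109. Promoters came from RefSeq, GRCh38.p14.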

Additional observations from a re-analysis of the deposited data

How the results depend on the processing

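In OE against control the rise of the mitotic genes held under every alternative run, with 44 to 49 genes higher and 0 lower. All genes called there fell from 2493 to 1431 at an adjusted p under 0.01. In KO against control, 17 genes were higher, or 8 with length and GC trends removed, and the median of 0.02 changed sign with DESeq2 (-0.01), with no filter on low counts (-0.02), with length and GC trends removed (-0.09) and without KO replicate 3 (-0.05), with -0.05 to 0.09 over all libraries left out. There 9 genes changed sign with length and GC trends removed: TOP2A (-0.02), AURKA (-0.08), CCNA2, CCNF, UBE2C, NDC80, DLGAP5, NCAPG and ECT2. Of these, AURKA, CCNA2 and NDC80 had passed as fitted. PLK1 stood in KO against control at -0.03 without Control replicate 1 and -0.05 without KO replicate 3 (-0.05 to 0.08 over all libraries). In KO against OE, the 4 higher genes became 2 with DESeq2, with no filter and with length and GC trends removed, and 1 with only both groups fitted or at an adjusted p under 0.01. Leaving out a library gave 1 to 5 higher. CCNB1 stood there at -0.10 with the length trend removed, -0.31 with length and GC trends removed and -0.09 with the replicate block and the length trend removed. CDK1 stood at 0.07 without KO replicate 1, 0.04 without KO replicate 2 and 0.06 without OE replicate 3 (-0.18 to 0.07 over all libraries). The cause of these changes was not tested. With the replicate number as a block, 17 genes were higher and 16 lower in KO, 47 and 0 in OE, and 4 and 38 in KO against OE, and no call of a mitotic gene changed. SGO1, at the lowest level per length of the tested genes, had an SE of 0.28 in KO against control.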
